A study of Mus musculus with 6 samples.

Results

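A set of 10 genes that mark microglia, the resident macrophages of the brain, was followed in RNA purified with tagged ribosomes from mouse striatum after morphine or saline. They were given by name: the receptor genes Csf1r, Cx3cr1, P2ry12 and Trem2, the complement genes C1qa, C1qb and C1qc, the protease gene Ctss, and Tmem119 and Aif1. They were looked up by Ensembl identifier in the authors' comparison of all genes. Of the 10, 8 were listed among its 18732 genes, and all 8 were among the 17279 genes with an adjusted p. C1qc and Tmem119 were not listed, so no value is given for them.

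All mice carried an Oprm1-Cre allele, which places Cre recombinase under control of the mu opioid receptor locus, together with a Cre-dependent GFP-L10a at the Rosa locus. GFP-L10a is a ribosomal protein fused to GFP, and RNA bound to it was captured from striatal lysate with antibodies against GFP. For the Cre allele, the sample labels have Oprm1Cre/+ while the design text has Oprm1Cre/Cre, and which holds is not known. Morphine and saline had 3 libraries each, and a library pooled both striatal hemispheres of 2 brains, taken 24 h after dosing ended. The morphine group had subcutaneous injections over 5 days, 2 on each day, with doses that rose through 20, 40, 60 and 100 mg/kg. The age of the mice is not given in the labels. The labels name the captured cells as positive for the mu opioid receptor, and a capture of this kind can also hold RNA of cells without the tag.

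Microglia survey the brain with fine processes and depend on signalling through CSF1R, the receptor of the growth factors CSF1 and IL-34. Neurons address them through fractalkine, read by CX3CR1, and through nucleotides, read by P2RY12. Microglia are the main source of C1q in the brain, the protein that starts the classical complement cascade and tags synapses for removal. TREM2 senses lipids and signals through an adaptor, TYROBP, and cathepsin S works in lysosomes and after secretion. TMEM119 is a surface protein and IBA1, the product of Aif1, a cytosolic protein that binds calcium and actin, and both serve as stains for the cell type.

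Of the 8 listed microglia genes, 6 rose after morphine, 0 fell and 2 did not pass the authors' threshold of adjusted p < 0.05. Over all tested genes, 11.8% were called higher and 2.01% lower. The called genes were Cx3cr1, Csf1r, P2ry12, C1qb, Ctss and C1qa, and the genes not called were Trem2 and Aif1. At an unadjusted p under 0.05 the same counts held, 6 higher and 0 lower. The median log2 fold change of the 8 was 2.23, against -0.01 over all tested genes. The authors' table holds 1 comparison and no value per library. The level in each library, and whether the groups overlapped, were therefore not analysed here, and the authors' standard errors (SE) carry all that is known of the spread. Neither the numerator of the fold change nor the set of libraries fitted is stated, and the letters RM-out in the table's title are not explained. A positive value is taken here to mean more RNA after morphine, because the authors put positive values in a sheet labelled up. In such bulk RNA, a change in the number of cells of a type and a change in RNA per cell cannot be told apart.

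**Figure D1:**
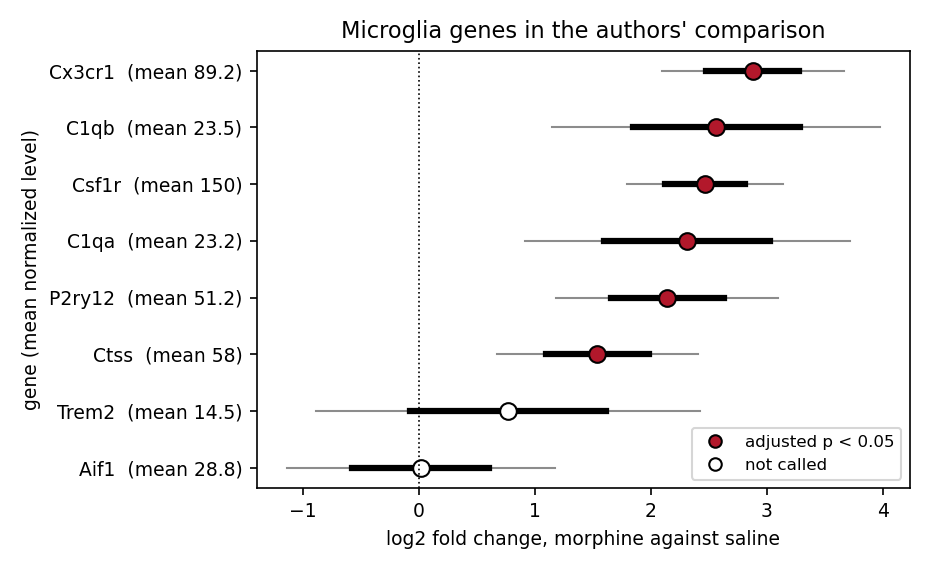
Log2 fold changes of the 8 listed microglia genes, morphine against saline, from the authors' deposited table. Points are estimates, thick bars are 1 SE to each side and thin lines are 95% Wald intervals. The 6 filled points passed adjusted p < 0.05 and lie between 1.54 and 2.88, while Trem2 (0.77) and Aif1 (0.02) did not pass.

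These RNAs were scarce in the captured material. The mean level used by the authors is a count divided by a size factor and averaged over the libraries fitted. By the authors' deposited table it ranged from 14.5 for Trem2 to 150.1 for Csf1r, against a median of 684 over tested genes. The 8 genes together held 438 of a summed level of 60933719 over the table, or 0.000719%. Divided by exon length, the 8 genes had a median of 20.8 per kilobase and ranged from 2.93 for Trem2 to 42.7 for Ctss. Ctss was thus the highest microglia gene per length and Csf1r, at 26.0 per kilobase, the next. The genes C1qa, C1qb, P2ry12, Cx3cr1 and Aif1 lay between 18.8 and 22.3 per kilobase, and no error is available to order them.

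On the same scale, levels per kilobase had a median of 5.12 for 8 endothelial markers, 81.4 for 10 astrocyte markers and 288 for 11 oligodendrocyte markers. The 10 markers of spiny projection neurons, the main neurons of the striatum, had a median of 4887 per kilobase. Among them Oprm1 itself had the lowest level, 81.9 per kilobase. The median of the microglia genes thus lay between those of endothelial and astrocyte markers in level per length, and the microglia and neuronal ranges did not overlap.

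**Figure D2:**
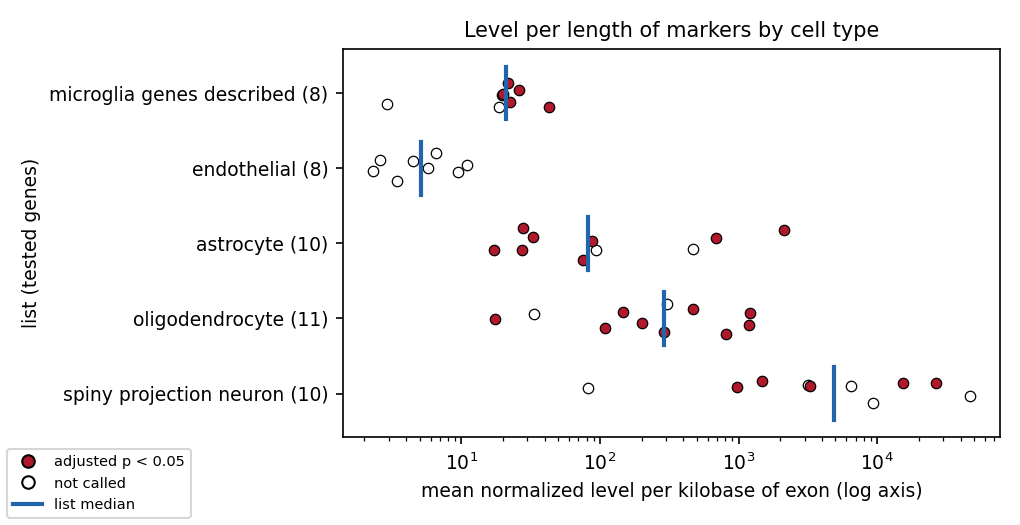
Mean normalized level per kilobase of exon on a log axis, for markers of each cell type in the authors' deposited table, with the number of tested genes in brackets. Each point is 1 gene, filled where adjusted p < 0.05, and the bar is the list median: 20.8 for the microglia genes and 4887 for spiny projection neurons.

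The receptor genes held both the largest change among the 8 and 1 gene that was not called. Cx3cr1, the fractalkine receptor gene (ENSMUSG00000052336, chromosome 9, 119901616 to 120069879, minus strand, GRCm38), had a mean level of 89.2 in the authors' deposited table. It rose there by 2.88 on the log2 scale (SE 0.40, adjusted p = 1.40e-10), which is 7.35-fold with a 95% Wald interval of 4.27 to 12.7. Of its exon bases, 1.73% lie over Gm33858 on the opposite strand, which was not listed. Ranked by log2 fold change it was number 11 of the 17279 tested genes. Its ligand gene, Cx3cl1, which neurons express, had in the authors' deposited table a far higher mean level of 29249.9 and rose by 1.01 (SE 0.15).

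Csf1r encodes the tyrosine kinase receptor on which microglial survival rests (ENSMUSG00000024621, chromosome 18, 61100598 to 61132149, plus strand, GRCm38). It rose in the authors' deposited table by 2.47 (SE 0.34, adjusted p = 1.43e-10), which is 5.53-fold with an interval of 3.47 to 8.81. Of its exon bases, 15.1% lie over exons of Hmgxb3 on the opposite strand. For Hmgxb3, the authors' deposited table had a mean of 6372 and a log2 fold change near 0, 0.06 (SE 0.14, adjusted p = 0.886). Whether reads were counted by strand is not stated in the sources used here, so reads in the shared bases may belong to either gene. Both ligand genes of the receptor were listed. By the authors' deposited table, Csf1 rose by 0.87 (SE 0.28, adjusted p = 0.0156), and Il34 had 0.41 (SE 0.15) with an adjusted p of 0.0531.

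P2ry12, the ADP receptor gene that marks resting microglia (ENSMUSG00000036353, chromosome 3, 59216272 to 59262871, minus strand), had a mean level of 51.2. It rose in the authors' deposited table by 2.14 (SE 0.49, adjusted p = 0.000209), 4.41-fold with an interval of 2.27 to 8.56. The gene lies within Med12l, which is on the opposite strand, with 9 exon bases in common. Med12l did not pass, and the authors' deposited table had it at -0.16 (SE 0.13, adjusted p = 0.537).

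Trem2 (ENSMUSG00000023992, chromosome 17, 48346401 to 48354147, plus strand) was the scarcest of the 8. It was at 0.77 (SE 0.84, adjusted p = 0.709) with a mean level of 14.5 by the authors' deposited table. Its 95% Wald interval, -0.88 to 2.42, holds both no change and the estimates of C1qa and P2ry12. At that SE an estimated log2 fold change would have had to reach 2.28 to pass, so an estimate equal to that of P2ry12 would not have passed. Ligand genes linked to TREM2 rose in the authors' deposited table: Apoe, which encodes apolipoprotein E, by 2.14 (SE 0.17), and Clu, which encodes clusterin, by 1.29 (SE 0.17). Astrocytes make both in quantity. In all, 4 of 5 ligand genes rose and 0 fell, where 11.8% of all tested genes were called higher and 2.01% lower. All 5 encode proteins with a predicted membrane or signal segment, by a rule described below. Of tested coding genes with such a segment, 44.2% were called higher.

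The C1q genes lie side by side on chromosome 4, within 18.7 kilobases of GRCm38 (136880129 to 136898803), all on the minus strand with C1qc in the middle. C1qa and C1qb, which encode the A and B chains of C1q, were close in level and in change. C1qb (ENSMUSG00000036905), with a mean level of 23.5, rose in the authors' deposited table by 2.56 (SE 0.72, adjusted p = 0.00428). C1qa (ENSMUSG00000036887), with a mean level of 23.2, rose in the authors' deposited table by 2.32 (SE 0.72, adjusted p = 0.0116). These are 5.91-fold and 4.98-fold, and the intervals were wide, 2.22 to 15.7 for C1qb and 1.88 to 13.2 for C1qa. The estimates differed by less than either SE. These mean levels are taken over both groups, and genes with means of at most 10.9 had no adjusted p. At such fold changes the levels after saline may lie under that mark. Both genes may thus have been tested only through the morphine libraries, and the level in each group is not given.

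Ctss (ENSMUSG00000038642, chromosome 3, 95526786 to 95556403, plus strand) encodes cathepsin S, a cysteine protease that also trims the invariant chain of MHC class II. At a mean level of 58.0 it rose in the authors' deposited table by 1.54 (SE 0.44, adjusted p = 0.00565), 2.91-fold with an interval of 1.59 to 5.31. It had the smallest log2 fold change among the 6 called genes.

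Aif1 (ENSMUSG00000024397, chromosome 17, 35170991 to 35176068, minus strand), whose product IBA1 is the usual stain for microglia, had the lowest log2 fold change of the 8. It was at 0.02 (SE 0.59, adjusted p = 0.993) with a mean level of 28.8 by the authors' deposited table. That level was above those of C1qa and C1qb, which passed. Its 95% Wald interval ran from -1.14 to 1.17, or 0.454-fold to 2.25-fold. The lower ends of the intervals of Cx3cr1, Csf1r and P2ry12, at 2.09, 1.79 and 1.18, lay above it. A log2 fold change of 1.59 would have passed at its SE. The difference between Aif1 and the other genes was not tested, since their estimates come from the same libraries.

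**Figure D3:**
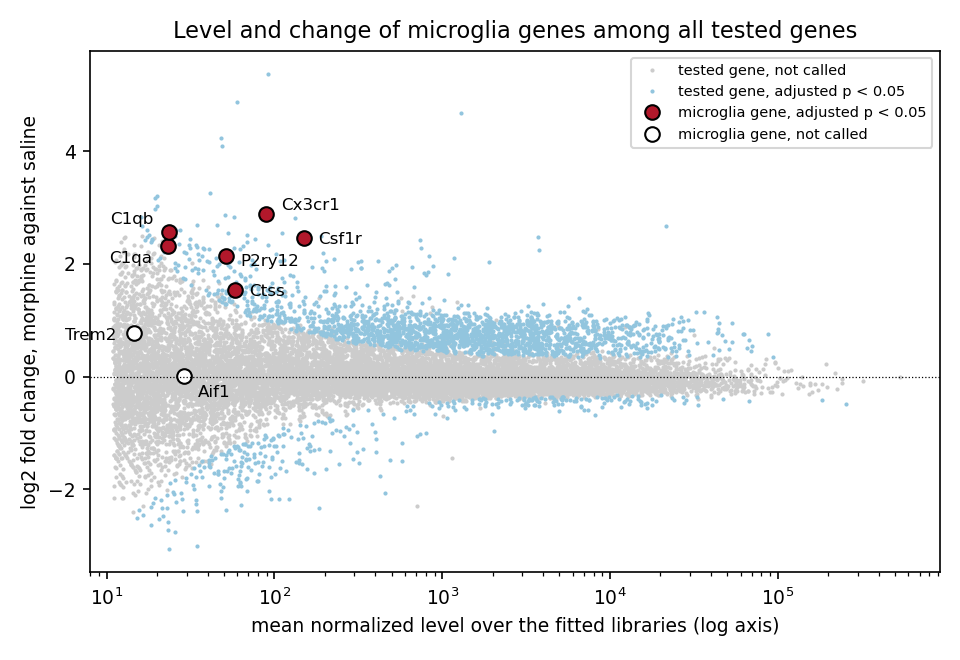
Mean normalized level (log axis) and log2 fold change of the 17279 tested genes in the authors' deposited table, with the microglia genes drawn as large points. The 6 called microglia genes lie at means of 23.2 to 150.1 and log2 fold changes of 1.54 to 2.88, and Aif1 lies at 0.02.

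The SEs of the microglia genes were those of their level. Each was compared with the median SE of tested genes close in mean level, 100 on each side, and the ratio ran from 0.966 for Aif1 to 1.18 for Csf1r. A test of change beyond 2-fold, computed from the authors' log2 fold changes and SEs, passed Cx3cr1 (adjusted p = 0.00352) and Csf1r (adjusted p = 0.0156) and none of the other 6. Over all tested genes that test called 0.145% higher.

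The kind of protein was set beside these values. A protein was given a predicted segment where a hydropathy rule found a membrane-spanning or signal stretch. Of 3848 tested coding genes with a predicted segment, 44.2% were called higher and the median log2 fold change was 0.56. Of 10062 with none, 2.78% were called higher and the median was -0.06. Within the range of mean level of the microglia genes, 16.4% of 985 genes with a predicted segment and 3.27% of 1559 with none were called higher. Over all 4847 tested genes in that range it was 5.12%. Csf1r, Cx3cr1, P2ry12, C1qa and C1qb had a predicted segment and all 5 rose. Ctss, Trem2 and Aif1 had none by the rule. That rule misses known biology for Ctss and Trem2, since cathepsin S enters the secretory pathway and TREM2 spans the membrane, while IBA1 is cytosolic.

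Each gene was then centred on the median of its class. The centred log2 fold changes were 2.32 for Cx3cr1 (adjusted p = 1.08e-06), 1.91 for Csf1r (adjusted p = 3.16e-06) and 1.58 for P2ry12 (adjusted p = 0.0221), and these 3 still passed. C1qb at 2.00 (adjusted p = 0.071) and C1qa at 1.75 (adjusted p = 0.143) no longer passed. Ctss, placed by the rule with proteins that have no segment, came to 1.60, above its uncentred value, so that centring did not test its call. Centred on the median of genes with a predicted segment instead, an alternative chosen after seeing the data, Ctss was at 0.98 (adjusted p = 0.221) and did not pass. Over all genes, calls went from 2036 higher and 347 lower (85.4% higher) to 522 higher and 670 lower (43.8% higher) with centring by the rule, a shift toward balance that subtracting class medians brings by construction.

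Further genes of microglia were divided by where their proteins reside. The counts of this and the following lists stand beside 11.8% called higher and 2.01% lower over all tested genes. Of coding genes, 44.2% with a predicted segment and 2.78% with none were called higher. Of 36 surface and secreted genes, 23 were listed and 19 tested, and 12 rose, 7 did not pass and 0 fell, with a median log2 fold change of 1.71. By the authors' deposited table the highest that passed were Fcrls, an Fc receptor-like gene of microglia (2.48, SE 0.91, adjusted p = 0.0483), and Siglech, a sialic acid-binding lectin gene (2.43, SE 0.80, adjusted p = 0.0214). Their mean levels over both groups, 17.3 and 18.7, carry the limit given for the C1q genes. Lpcat2 and Selplg, which also passed, at means of 27.0 and 25.4, carry it too. The lowest that passed in the authors' deposited table were Golm1, which encodes a Golgi membrane protein (0.85, SE 0.28), and Tgfbr1, the TGF-beta receptor gene (0.62, SE 0.23). The 13 genes of this list that were not listed include P2ry13 and the integrin genes Itgam and Itgb2.

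Of 36 cytosolic and nuclear genes of microglia, 32 were listed and 29 tested, and 0 rose, 2 fell and 27 did not pass, with a median of 0.34. At an unadjusted p under 0.05, 4 were higher and 2 lower. Those that fell in the authors' deposited table were Arhgdib, a gene of an inhibitor of small GTPases (-0.47, SE 0.14, adjusted p = 0.00929), and Rgs10, a regulator of G protein signalling (-0.41, SE 0.15, adjusted p = 0.0439). At means of 1516 and 1502 both were far above the 8 microglia genes in level, and RGS10 is known in neurons too. Positive log2 fold changes were held by 24 of the 29. The cytosolic and surface lists were close in precision, with median SEs of 0.48 and 0.53 and median levels of 56.8 and 42.8.

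Both lists were then joined, and only genes in the range of mean level of the 8 genes were kept. Of those with a predicted segment, 9 of 13 rose, with a median of 1.91. The 9 include Fcrls, Siglech, Lpcat2 and Selplg, which carry the limit given for the C1q genes. Of those with none, 0 of 16 rose or fell, with a median of 0.76, and 3 had an unadjusted p under 0.05. Over all tested coding genes in that range, 16.4% with a predicted segment and 3.27% with none were called higher. The count of 0 of 16 is thus near the share of its class. Median SEs of the 13 and the 16 genes were 0.59 and 0.62. The 16 include Olfml3 and Fcgr1 from the surface and secreted list, and Olfml3 is among the 3. The split is therefore by the rule and not by where the proteins reside. The difference between these groups of genes was not tested, and the lists were drawn up with the contrast between membrane and other proteins already known.

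**Figure D4:**
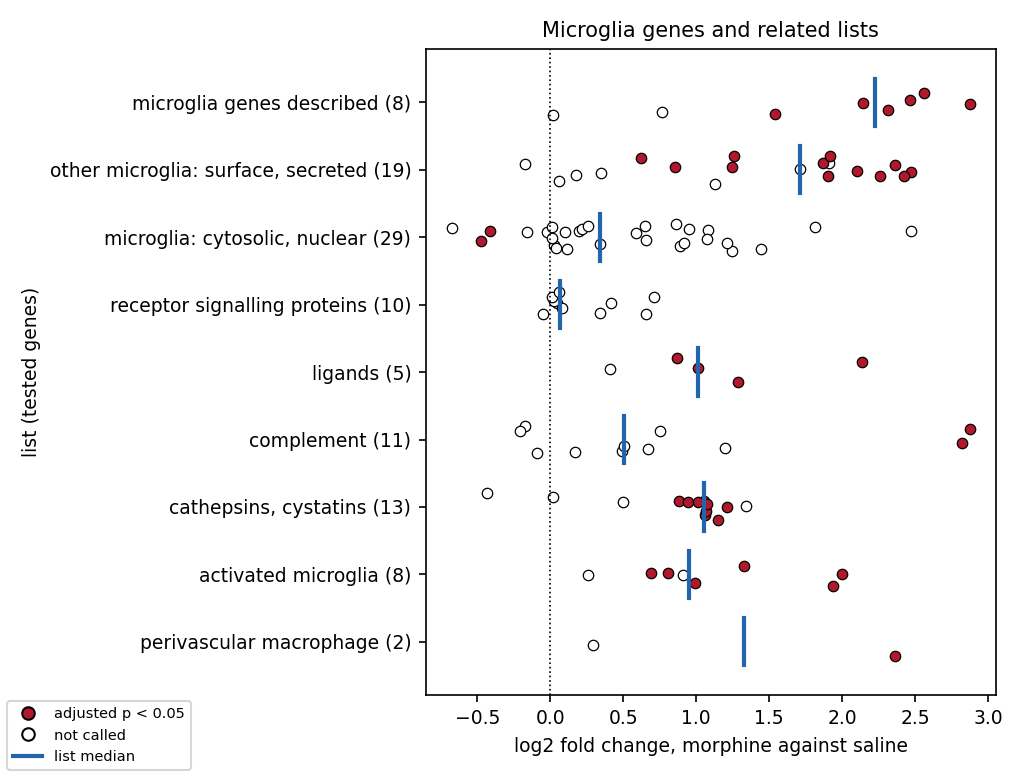
Log2 fold changes of microglia genes and related lists in the authors' deposited table, with the number of tested genes in brackets. Each point is 1 gene, filled where adjusted p < 0.05, and bars are list medians: 2.23 for the microglia genes, 1.71 for other surface and secreted genes and 0.34 for cytosolic and nuclear genes.

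Tested genes that act downstream of CSF1R and TREM2 did not pass. Of 14 adaptors and signalling genes 10 were tested and 0 rose or fell, with a median of 0.07, and 1 had an unadjusted p under 0.05. The 2 with the smallest p were, by the authors' deposited table, Sh2b3, an adaptor gene (0.42, SE 0.16, adjusted p = 0.0625), and Ptpn6, the SHP-1 phosphatase gene (0.71, SE 0.55, adjusted p = 0.523). Tyrobp, Fcer1g and Hcst, the membrane adaptors of the list, were not listed. All 10 tested genes encode proteins with no predicted segment, a class in which 2.78% of tested coding genes were called higher. Their mean levels ran from 34.0 to 11088 with a median of 878, against 14.5 to 150.1 for the microglia genes. Which cells gave these RNAs is not known, so a change within microglia was not tested by this list. Syk, Plcg2, Inpp5d, Pik3cg and Vav1 stand in both this list and the cytosolic one.

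Beyond C1q, the complement list held 11 tested genes of 24, of which 2 rose and 0 fell, with a median of 0.51. In the authors' deposited table C4b, the gene of a component cleaved by the C1 complex, rose by 2.82 (SE 0.35, adjusted p = 2.16e-13). The receptor genes C3ar1, C5ar1 and Itgax were not listed. The genes C3, C4a and C1s1 were listed without an adjusted p.

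Among the relatives of Ctss and their inhibitors, 13 of 16 cathepsin and cystatin genes were tested, 9 rose and 0 fell, with a median of 1.06. By the authors' deposited table Cst3, the cystatin C gene, was at 1.21 (SE 0.16) and Ctsf at 1.15 (SE 0.19). The lowest that passed in the authors' deposited table were Ctsz at 0.95 (SE 0.22) and Ctsa, the gene of protective protein cathepsin A, at 0.88 (SE 0.18). These genes are broadly expressed, and their median level was 1005. The gap between Ctss and Cst3, the highest of the 9, was smaller than the SE of Ctss.

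Of 26 genes of activated microglia, 18 were not listed, among them Itgax, Clec7a, Cst7, Ccl3, Il1b and Tnf. Of the 8 tested, 6 rose and 0 fell, with a median of 0.95. All 8 had a predicted segment, a class in which 44.2% of tested coding genes were called higher. By the authors' deposited table the receptor tyrosine kinase gene Axl was at 2.00 (SE 0.40), the tetraspanin gene Cd9 at 1.94 (SE 0.46), the lipase gene Lpl at 0.81 (SE 0.16) and B2m, the MHC class I light chain gene, at 0.69 (SE 0.24). Other brain cells are known to express these 4 genes.

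Among markers of other immune cells, 2 of 8 perivascular macrophage genes were listed. By the authors' deposited table Stab1, a scavenger receptor gene, rose by 2.37 (SE 0.70, adjusted p = 0.00791), and Cd163 was at 0.29 (SE 0.36, adjusted p = 0.754). The mean level of Stab1 over both groups, 24.0, carries the limit given for the C1q genes. The defining genes Mrc1, Lyve1, Pf4, F13a1, Ms4a7 and Cbr2 were not listed. Of 14 markers of T cells, B cells, monocytes and other leukocytes, 0 were listed.

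Markers of other glia were higher as well. Astrocyte markers rose in 8 of 10 (median 1.47) and oligodendrocyte markers in 9 of 11 (median 1.19). Spiny projection neuron markers rose in 5 of 10 (median 0.48). Endothelial markers rose in 0 of 8 tested (median 0.82), and 2 of them had an unadjusted p under 0.05. None of these 4 lists had a member that fell. Over all tested genes 11.8% were called higher, and of coding genes 44.2% with a predicted segment and 2.78% with none. Tested markers with such a segment were 8 neuronal, 6 astrocyte, 6 oligodendrocyte and 8 endothelial genes. The neuronal count was thus near the share of that class. Among markers with none, Gfap and Aldoc of 4 astrocyte genes rose, and Cnp, Mbp, Ermn and Aspa of 5 oligodendrocyte genes. The 2 neuronal genes with none did not pass. The endothelial genes had a median level of 19.7 and a median SE of 0.78, against 40.0 and 0.54 for the microglia genes, so changes in them were harder to detect. The part of other glial RNA in the microglia result was not tested.

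Promoters are shown for Ctss and C1qb, which were called, and for Aif1, which was not. They run from 250 bases before to 50 after the start, 5′ to 3′ on the gene's strand, from RefSeq on GRCm38.p6. Capitals mark GAGGAA on either strand, and GAGGAAGT where it is complete, a purine-rich sequence bound by PU.1, a transcription factor of the macrophage lineage, and by other ETS factors. The shorter motif lies within the longer.
Ctss, chr3:95526536-95526835 (plus strand): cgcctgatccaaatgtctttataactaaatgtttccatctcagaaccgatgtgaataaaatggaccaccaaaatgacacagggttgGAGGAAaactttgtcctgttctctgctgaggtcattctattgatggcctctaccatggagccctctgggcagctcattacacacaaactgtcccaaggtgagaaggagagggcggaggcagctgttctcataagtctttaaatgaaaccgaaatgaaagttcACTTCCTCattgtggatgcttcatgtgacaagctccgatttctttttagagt
C1qb, chr4:136886151-136886450 (minus strand): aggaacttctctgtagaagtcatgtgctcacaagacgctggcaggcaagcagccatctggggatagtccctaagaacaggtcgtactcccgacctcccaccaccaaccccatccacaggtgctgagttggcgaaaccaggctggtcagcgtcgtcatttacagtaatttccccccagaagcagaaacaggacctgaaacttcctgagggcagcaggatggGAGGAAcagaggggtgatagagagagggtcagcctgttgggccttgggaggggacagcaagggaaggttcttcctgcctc
Aif1, chr17:35176003-35176302 (minus strand): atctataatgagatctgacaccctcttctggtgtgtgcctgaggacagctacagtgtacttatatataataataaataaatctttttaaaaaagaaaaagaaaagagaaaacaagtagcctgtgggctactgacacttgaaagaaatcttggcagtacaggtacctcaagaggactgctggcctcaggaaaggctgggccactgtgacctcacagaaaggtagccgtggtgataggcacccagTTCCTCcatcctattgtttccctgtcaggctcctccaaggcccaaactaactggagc
The table had a promoter for 7 of the 10 genes. GAGGAAGT or its reverse complement ACTTCCTC was in 2 of the 7, Ctss and C1qc, and in 3.2% of 32851 promoters of this length. The shorter GAGGAA or TTCCTC was in 5 of the 7 and in 28.3% of all. Cx3cr1 and P2ry12, which rose, held neither in this window, and Aif1 and Trem2, which were not called, held the shorter form. The gene of PU.1 itself, Spi1, was listed without an adjusted p.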

How the data were processed

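RNA captured with GFP-L10a from striatum was compared by the authors between morphine and saline. The labels name 3 morphine and 3 saline libraries, and whether all of them were fitted is not stated. Per the submitters' processing notes, the tools were STAR 2.6.1d and DESeq2 1.20.0, on GRCm38 or mm10, without their roles. How reads were counted, filtered and modelled is not stated in the sources used here. The deposited mean level is a signal, counts divided by size factors and averaged by the authors over the libraries fitted. Fold changes and SEs are deposited as the authors' log2 estimates. The authors' deposited statistic is a score, their ratio. The authors' deposited p-values come from a two-sided Wald test, Benjamini-Hochberg adjusted over 17279 genes; the other 1453 genes had means of at most 10.9. The lowest mean listed was 4.46. Depth per library is unknown. Nothing says that the libraries of a group were separate cohorts, so p-values measure only the spread between them.

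Symbols came from GENCODE release M21 (GRCm38), with 18726 identifiers named and 6 not. Level per length is the mean divided by the merged exon length. The 2-fold test is a two-sided Wald test of an absolute log2 fold change above 1, adjusted over the tested genes. A predicted segment, from the longest coding sequence, has a mean Kyte-Doolittle value of 1.9 or more over 19 residues, or 2.2 or more over 12 residues within the first 40. Wald intervals rest on the authors' SEs and a normal distribution. Lists are given as counts and medians, with no set test. Values are given for all listed genes of the 10, all ligand genes and, per list, the 2 called genes at each end of the log2 fold change, or the 2 smallest p where none was called. Such values are not repeated for the astrocyte, oligodendrocyte, endothelial and neuronal lists. Cd163, Hmgxb3, Med12l, Olfml3, Fcgr1, Lpcat2 and Selplg fall outside this rule and were picked with values known. The same holds for genes named as not listed or without an adjusted p. The values of 1 complement gene that the rule would name are not reported here. The 10 genes and the lists were chosen with earlier results of these data known. Alternatives changed the threshold, adjustment, filter and centring; centring Ctss and Trem2 with the segment class was added after seeing the data. Software was Python 3.11.15 with matplotlib 3.10.9, Biopython 1.88, scipy 1.17.1, pandas 2.3.3 and numpy 2.4.6, and the steps were tested on simulated data.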

Additional observations from a re-analysis of the deposited data

How the results depend on the processing

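Of the 6 microglia genes called higher, 2 passed with Bonferroni adjustment, Cx3cr1 and Csf1r. With genes of a mean of at least 100 only, 1 could pass, because Csf1r alone among the 8 reaches that level. The count stayed within 1.5 times with an adjusted p under 0.01 and with adjustment over every gene with a p. It also did so with a mean of at least 10 and with centring by the rule. An adjusted p under 0.01 ended the call of C1qa. Centring by the rule ended the calls of C1qa and C1qb and left 4, among them Ctss, whose call it did not test. With Ctss and Trem2 centred as genes with a predicted segment, an alternative chosen after seeing the data, 3 passed, since the larger median was then subtracted from Ctss. The median log2 fold change was 1.67 after subtracting the median of coding genes with a predicted segment, and moved by less than the median SE under the other 4 alternatives. Among those 4, a mean of at least 100 left the value of Csf1r alone. Another kept only called genes, which were selected for their change, so neither tests the median of the 8. The count past the 2-fold test did not move by more than 1.5 times under its 2 alternatives. Under 7 settings, single genes gave 49 values, of which 39 kept their side of the threshold and 10 lost it. Genes left out by the filter at a mean of 100 gave no value there and are not counted as lost. The direction of a called gene could not turn, since centring alone alters a log2 fold change. It subtracted at most 0.56, and the lowest called gene was at 1.54. Of 52 list counts, 3 moved by over 1.5 times, all with an adjusted p under 0.01: further surface and secreted genes called higher came to 7 in place of 12, activated genes to 3 in place of 6, and cytosolic and nuclear genes called lower to 1 in place of 2. No paired analysis was possible because no values per library were analysed, and for the same reason leaving out each replicate was not run. Low mean levels limit all of these genes.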

Other observations

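The coding genes nearest to the microglia genes on the chromosome were found by position among those listed, and the pairs or single genes given here were picked with their values known. Next to Csf1r, 15.5 kilobases away on the same strand, lies Pdgfrb, the gene of a related receptor that marks pericytes, with 1.55 (SE 0.38, adjusted p = 0.000779) by the authors' deposited table. Selplg, the P-selectin ligand gene, is a neighbour of Tmem119, and the authors' deposited table had it at 1.92 (SE 0.69, adjusted p = 0.0419). Its mean level over both groups, 25.4, carries the limit given for the C1q genes. The C1q genes are flanked by Eph receptor genes, in the authors' deposited table Ephb2 at 0.74 (SE 0.26) and Epha8 at 1.09 (SE 0.28), both of which passed. The neighbours of Ctss did not pass, with Ctsk at 0.50 (SE 0.56) and Golph3l at -0.12 (SE 0.15) by the authors' deposited table. Those of Aif1 did not pass either, Prrc2a at 0.09 (SE 0.14) and Lst1, a leukocyte gene, at 0.04 (SE 0.31) by the authors' deposited table.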
